A study of Mus musculus with 7 samples.

Results

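The genes described here are 9 genes of the hemidesmosome and of laminin-332 in mouse skin: Itga6, Itgb4, Itga3, Col17a1, Dst, Plec, Cd151, Lama3 and Lamb3. They were picked by gene symbol in the deposited count table and are 9 of its 56691 genes. The rule used no measured value, but the list was made with earlier results of these data known. The libraries came from 3 mice lacking Tuft1 (mice 2, 3 and 4; skin that looked healthy) and 4 wild-type mice (mice 5, 6, 7 and 8), with 1 library per mouse. Tuft1 encodes tuftelin 1, which the study's title describes as a protein associated with desmosomes, the junctions between keratinocytes. The RNA was polyadenylated RNA from whole pieces of skin, and the libraries read only a stretch near the 3' end of each transcript. The strain, age, sex and body site of the mice, and which part of Tuft1 was deleted, are not given in the sources used here.

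Hemidesmosomes fasten the basal keratinocytes of the epidermis to the basement membrane. Inside the cell, plectin and the epithelial form of dystonin (BPAG1e) link keratin filaments to integrin α6β4, which spans the membrane together with collagen XVII and binds laminin-332 outside the cell. Lama3 and Lamb3 encode chains of laminin-332. Mutations in many of these genes cause epidermolysis bullosa, in which the skin blisters beneath or within the basal layer.

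Levels are given as CPM, the counts of a gene relative to its library's total after scaling by the TMM factor. Because 3' tags do not become more numerous with transcript length, CPM is set side by side between genes without a length correction. Whether the tags capture every gene alike was not tested, so such comparisons are of tag levels, not of transcript numbers. The libraries held 7009237 to 9256459 counts, and the 9 genes took 0.135% to 0.188% of them. Where a library had 0 counts, up to 0.323 to 0.395 CPM remained possible (3 counts, counting error only). Tuft1 was at 19.9, 29.1 and 17.2 CPM in the knockout libraries, against 106, 104, 55.6 and 114 CPM in the wild-type libraries. All 3 knockout libraries lay below all 4 wild-type libraries, the direction their labels give, although the edgeR quasi-likelihood adjusted p was 0.172 (log2 fold change -2.10, SE 0.39). The transcript tag need not lie in the deleted part of the gene. Krt5 and Krt14, keratins of basal keratinocytes, were at 3464 to 5489.6 CPM and 1606 to 2407 CPM over the 7 libraries, so the cell layer that builds hemidesmosomes was present in all of them. The labels number the mice. No 2 libraries had equal counts in more than 0.408% of the genes with 10 or more counts in both.

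Some summed markers of other skin cells also lay apart between the genotypes. Summed markers of suprabasal keratinocytes (9 genes) were at 11138 to 15696 CPM in knockout skin, against 16961 to 20843 CPM in wild-type skin, although 3 of the 9 had a log2 fold change above 0 and Flg, which encodes filaggrin, lay higher in every knockout library (1.09, SE 0.28; edgeR adjusted p = 0.519). Those of fat cells (8 genes, all with a log2 fold change below 0) were at 2415 to 3967 CPM in knockout skin, against 6296 to 10988 CPM in wild-type skin. Summed markers of hair follicle stem cells (6 genes) were at 931 to 1295 CPM in knockout skin, against 449 to 749 CPM in wild-type skin. Of these 6 genes, 5 had a log2 fold change above 0, and Tcf7l1 lay below it (-0.20, SE 0.46). The groups overlapped for Tcf7l1, Cd34 and Nfatc1. Summed markers of basal keratinocytes (8 genes) were at 8625 to 11799 CPM in knockout skin, against 7997 to 11912 CPM in wild-type skin, and overlapped. Of 5 further lists, summed melanocyte genes did not overlap (62.5 to 77.9 CPM in knockout skin, against 10.3 to 52.5 CPM in wild-type skin). Only 5 of the 7 melanocyte genes had enough counts, and Tyrp1, Dct, Mlana and Kit had 0 counts in some libraries. The sums for fibroblasts, endothelium, muscle and Schwann cells overlapped. Summed endothelium markers (8 genes) were at 107 to 140 CPM in knockout skin, against 118 to 221 CPM in wild-type skin. Only wild-type mouse 7, at 118 CPM, lay within the knockout range. The endothelium estimates were negative in 6 of the 8 genes and positive in Cdh5 and Vwf, with a median of -0.90 on the log2 scale. None of the genes in any of these lists was called, and their part in the values below was not tested. In whole skin, fewer cells of a type and less RNA per cell cannot be told apart.

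RefSeq promoter windows (GRCm38.p6, the 250 bases before a transcript start) were examined for 5 of the 9 genes. These were Itga3, Col17a1, Dst, Cd151 and Lamb3, with 9 windows between them. Windows of Itga6, Itgb4, Plec and Lama3 were not examined, so the counts among the 9 windows leave those genes out. The windows of Itga3 and Col17a1 are shown because these genes had the lowest and the highest fold change among the 5. Itga3 has 2 windows, and the one with more matches is shown; the other, at chr11:95069199-95069448, holds 1 GC box and is 50.8% G and C. The Itga3 window shown lies at chr11:95076715-95076964 on the minus strand and is 67.6% G and C. The Col17a1 window lies at chr19:47692043-47692292 on the minus strand and is 46.0% G and C. Capitals mark GGGCGG, the GC box, in Itga3 and TATAAA, the core of a TATA box, in Col17a1.
Itga3: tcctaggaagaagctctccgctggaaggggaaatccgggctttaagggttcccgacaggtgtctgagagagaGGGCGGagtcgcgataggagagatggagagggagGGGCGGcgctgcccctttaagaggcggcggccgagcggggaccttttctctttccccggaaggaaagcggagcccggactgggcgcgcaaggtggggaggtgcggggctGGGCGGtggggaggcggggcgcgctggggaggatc
Col17a1: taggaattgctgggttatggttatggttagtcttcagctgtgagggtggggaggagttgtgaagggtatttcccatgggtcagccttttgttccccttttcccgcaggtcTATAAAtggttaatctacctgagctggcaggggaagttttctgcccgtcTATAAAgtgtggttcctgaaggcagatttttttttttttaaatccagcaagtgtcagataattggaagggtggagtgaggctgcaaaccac
This Itga3 window holds 3 GC boxes and the Col17a1 window 2 TATAAA matches. Searched on both strands, GGGCGG was found in 4 of the 9 windows and in 32.7% of all 32851 windows of this length, and TATAAA in 1 of 9 and 12.4%. The AP-1 motif TGANTCA was found in none of the 9 windows and in 6.75% of all windows. These matches describe the letters of the windows only.

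The question put by the design was which transcripts differ in knockout over wild-type skin. No hemidesmosome or laminin-332 transcript was called: 0 of 9 had an adjusted p below 0.05 in the edgeR quasi-likelihood test, and all 9 adjusted p-values were 1.00. Over all 12888 genes tested, 3 genes (0.0233%) were called, so 0 of 9 lies near the background. The DESeq2 Wald test also called 0 of the 9, against 0.954% of all genes. At an unadjusted p below 0.05 the test passed 1 of the 9, Itga3, against 4.31% of all genes. The log2 fold changes lay above 0 for 5 genes and below 0 for 4, with a median of 0.12, against -0.0098 for all genes tested and -0.016 for the 5938 genes within the 9 genes' range of level. In 2 genes, Itga3 and Itga6, every knockout library lay below every wild-type library, as it did in 3.45% of all genes tested. No member lay higher in every knockout library, against 3.44% of all genes.

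**Figure D1:**
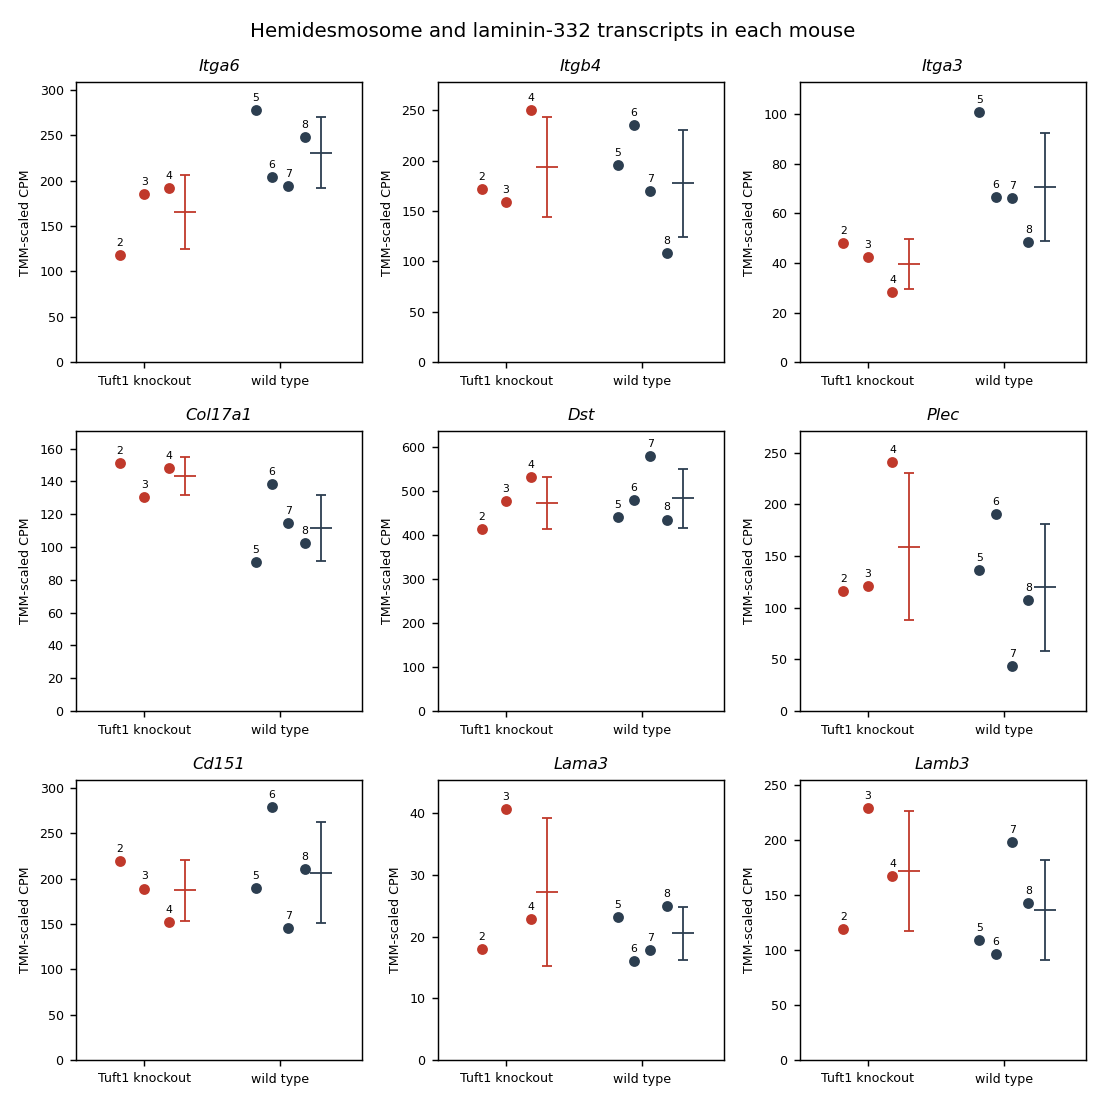
TMM-scaled CPM (y axis, from 0) of each of the 9 genes in the 3 knockout mice (left) and 4 wild-type mice (right); each point is 1 mouse with its number, and bars are mean ± SD. Itga6 and Itga3 lie lower in all 3 knockout mice than in any wild-type mouse, by a margin of 192 against 194 CPM for Itga6 and 48.1 against 48.6 CPM for Itga3, and the groups of the other 7 genes overlap.

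Itga6 (ENSMUSG00000027111.17, mm39 chr2:71575960-71688760, plus strand) encodes integrin α6, the laminin-binding chain of α6β4. Its level was 118, 185 and 192 CPM in knockout mice 2, 3 and 4, against 277, 204, 194 and 248 CPM in the wild-type mice, numbered 5 to 8. These groups did not overlap, but the highest knockout mouse and the lowest wild-type mouse were within 2 CPM of each other. The means were 165 ± 40.7 CPM in knockout skin (SD, n = 3) and 231 ± 39.0 CPM in wild-type skin (SD, n = 4). The log2 fold change was -0.48 (SE 0.25, 95% interval -1.03 to 0.065; edgeR unadjusted p = 0.0793), and the exact two-sided permutation test gave p = 0.0571, where 0.0286 is the smallest the design can give.

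Itgb4 (ENSMUSG00000020758.16, chr11:115865535-115899238, plus strand) encodes integrin β4, the partner of α6 whose long cytoplasmic tail binds plectin. Its level was 171, 158 and 249.9 CPM in knockout mice, against 195, 236, 170.1 and 108 CPM in wild-type mice. The groups overlapped, with knockout mouse 4 highest and wild-type mouse 8 lowest of all 7. In edgeR, Itgb4 had a log2 fold change of 0.12 (SE 0.29, 95% interval -0.50 to 0.75), and the exact permutation p was 0.743. The 2 chains of the same integrin therefore had fold changes on opposite sides of 0, neither past the test. The ratio of Itgb4 to Itga6 in a library was 1.45, 0.854 and 1.30 in knockout mice, against 0.704, 1.15, 0.879 and 0.437 in wild-type mice, and overlapped (1.20 ± 0.310 and 0.794 ± 0.302, SD, n = 3 and n = 4).

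Itga3 (ENSMUSG00000001507.17, chr11:94935300-94967627, minus strand) encodes integrin α3, which pairs with β1 and binds the same laminin outside hemidesmosomes. Its level was 48.1, 42.2 and 28.4 CPM in knockout mice, against 101, 66.7, 66.2 and 48.6 CPM in wild-type mice. Knockout mouse 4 was lowest, and knockout mouse 2 and wild-type mouse 8 differed by less than 1 CPM. The means were 39.6 ± 10.1 CPM in knockout skin (SD, n = 3) and 70.6 ± 21.9 CPM in wild-type skin (SD, n = 4), and the knockout mean was 56.1% of the wild-type mean. The log2 fold change of -0.83 (SE 0.38, 95% interval -1.66 to -0.0051) had an unadjusted p of 0.0488 in edgeR, and the exact two-sided permutation p was 0.0571. The unadjusted edgeR p was 0.0826 with the mean log2 CPM of Krt5, Krt14, Krt15 and Trp63 as a covariate. It was between 0.0286 and 0.162 with 1 mouse left out. Without knockout mouse 4 it was 0.133, and without wild-type mouse 5 it was 0.162.

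The separation of Itga6 and Itga3 hung on how libraries were scaled. With DESeq2 size factors in place of TMM, Itga6 reached 196 CPM in knockout skin and 194 CPM in wild-type skin, and only Itga3 stayed apart, against 6.94% of all genes apart on either side. Scaled by total count alone, both overlapped: Itga6 reached as high as 209.8 CPM in knockout skin and as low as 181 CPM in wild-type skin, and Itga3 47.8 and 46.5 CPM. On TMM-scaled CPM, 6.89% of all genes were apart on either side, and by total count 6.86%.

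Cd151 (ENSMUSG00000025510.15, chr7:141047305-141051386, plus strand) encodes a tetraspanin that associates with both laminin-binding integrins. Its level was 219.9, 189 and 152 CPM in knockout mice, against 190.0, 279, 146 and 211 CPM in wild-type mice. All 3 knockout values lay within the wild-type range. Cd151 had a log2 fold change of -0.14 (SE 0.26, 95% interval -0.71 to 0.42). The ratio of Cd151 to Itga3 was 4.57, 4.48 and 5.34 in knockout mice, against 1.88, 4.18, 2.20 and 4.34 in wild-type mice. The groups did not overlap in this ratio, though wild-type mice 6 and 8 came close to the knockout mice and wild-type mice 5 and 7 lay far below.

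Col17a1 (ENSMUSG00000025064.16, chr19:47634783-47680533, minus strand) encodes collagen XVII, the transmembrane collagen also known as BP180. Its level was 151, 130.3 and 148 CPM in knockout mice, against 90.8, 138, 115 and 102 CPM in wild-type mice. Knockout mice 2 and 4 lay above all wild-type mice, and knockout mouse 3 lay below wild-type mouse 6. The means were 143 ± 11.4 CPM in knockout skin (SD, n = 3) and 112 ± 20.4 CPM in wild-type skin (SD, n = 4). Its log2 fold change in edgeR was 0.36 (SE 0.25, 95% interval -0.18 to 0.90; exact permutation p = 0.0857). Set against Itga6 within a library, Col17a1 stood at 1.28, 0.702 and 0.773 in knockout mice, against 0.327, 0.678, 0.593 and 0.413 in wild-type mice. That ratio did not overlap between the groups, with knockout mouse 3 closest to wild-type mouse 6. Against Itgb4, the other chain of the same integrin, Col17a1 stood at 0.883, 0.822 and 0.594 in knockout mice, against 0.465, 0.587, 0.675 and 0.945 in wild-type mice, and overlapped. Both ratios that lay apart, Col17a1 to Itga6 and Cd151 to Itga3, have as denominator a gene that already lay apart by itself, and they were not set against ratios of other gene pairs.

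Dst (ENSMUSG00000026131.21, chr1:33947306-34347742, plus strand) encodes dystonin, a plakin with separate epithelial, nerve and muscle forms that these gene-level counts do not tell apart. It had the highest CPM of the 9 genes and was the steadiest. Its level was 413, 477 and 532 CPM in knockout mice, against 442, 479, 581 and 436 CPM in wild-type mice. The highest library was 1.41 times the lowest, and the groups overlapped. Its log2 fold change was -0.032 (SE 0.20, 95% interval -0.47 to 0.41), the narrowest interval among the 9 genes. Markers of skeletal muscle and nerve sheath were also in the skin: 10 muscle genes summed to 19518 to 28730 CPM in knockout skin, against 18000 to 24757 CPM in wild-type skin. For 8 Schwann cell genes the sums were 537 to 981 CPM and 386 to 647 CPM. How much of Dst or Plec came from those cells was not tested.

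Plec (ENSMUSG00000022565.16, chr15:76055174-76116774, minus strand) encodes plectin, which ties keratin filaments to integrin β4 and also serves other cells, muscle among them. It varied most of the 9 genes, at 116, 121 and 241 CPM in knockout mice, against 136, 191, 43.5 and 108 CPM in wild-type mice. Knockout mouse 4 was 5.55 times wild-type mouse 7, the extremes of the 7 libraries. With all mice its log2 fold change was 0.41 (SE 0.42, 95% interval -0.50 to 1.33), and without knockout mouse 4 it was -0.020. The 2 plakins did not move as one across mice: the ratio of Dst to Plec was 3.57, 3.94 and 2.21 in knockout mice, against 3.24, 2.51, 13.4 and 4.05 in wild-type mice. The value of 13.4 in wild-type mouse 7 set the spread of that ratio. Exons of Plec overlap those of Parp10, which had 989 counts to 7994 for Plec over all libraries. Exons of Dst overlap those of the predicted gene Gm26788 on the other strand (844 counts to 28106 for Dst), and the use of strand in counting is not stated in those sources.

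Lama3 (ENSMUSG00000024421.17, chr18:12466876-12716070, plus strand) encodes the α3 chain of laminin-332, which the integrins bind. It had the lowest mean CPM of the 9, at 17.99, 40.8 and 22.9 CPM in knockout mice, against 23.1, 16.1, 17.8 and 25.0 CPM in wild-type mice. Knockout mouse 3 alone lay above the wild-type range. The fold change, 0.41 on the log2 scale (SE 0.65), had the widest interval of the 9, up to 1.81, and without knockout mouse 3 it was -0.0066.

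Lamb3 (ENSMUSG00000026639.19, chr1:192890007-193026186, plus strand) encodes the β3 chain. Its level was 119, 229 and 168 CPM in knockout mice, against 109, 96.3, 198 and 142 CPM in wild-type mice. Knockout mouse 3 was highest here too, and the groups overlapped. Lamb3 had a log2 fold change of 0.34 (SE 0.31, 95% interval from -0.33; exact permutation p = 0.371).

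Lamb3 had a higher CPM than Lama3 in every library. The ratio of Lamb3 to Lama3 was 6.64, 5.62 and 7.32 in knockout mice, against 4.70, 5.99, 11.1 and 5.69 in wild-type mice. It overlapped between the groups, with wild-type mouse 7 highest, and no shift between these transcripts was detected with these mice. The ratio of Itga3 to Itga6, the integrin chains that were lower in every knockout library, also overlapped, at 0.407, 0.228 and 0.148 in knockout mice, against 0.364, 0.327, 0.342 and 0.196 in wild-type mice.

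**Figure D2:**
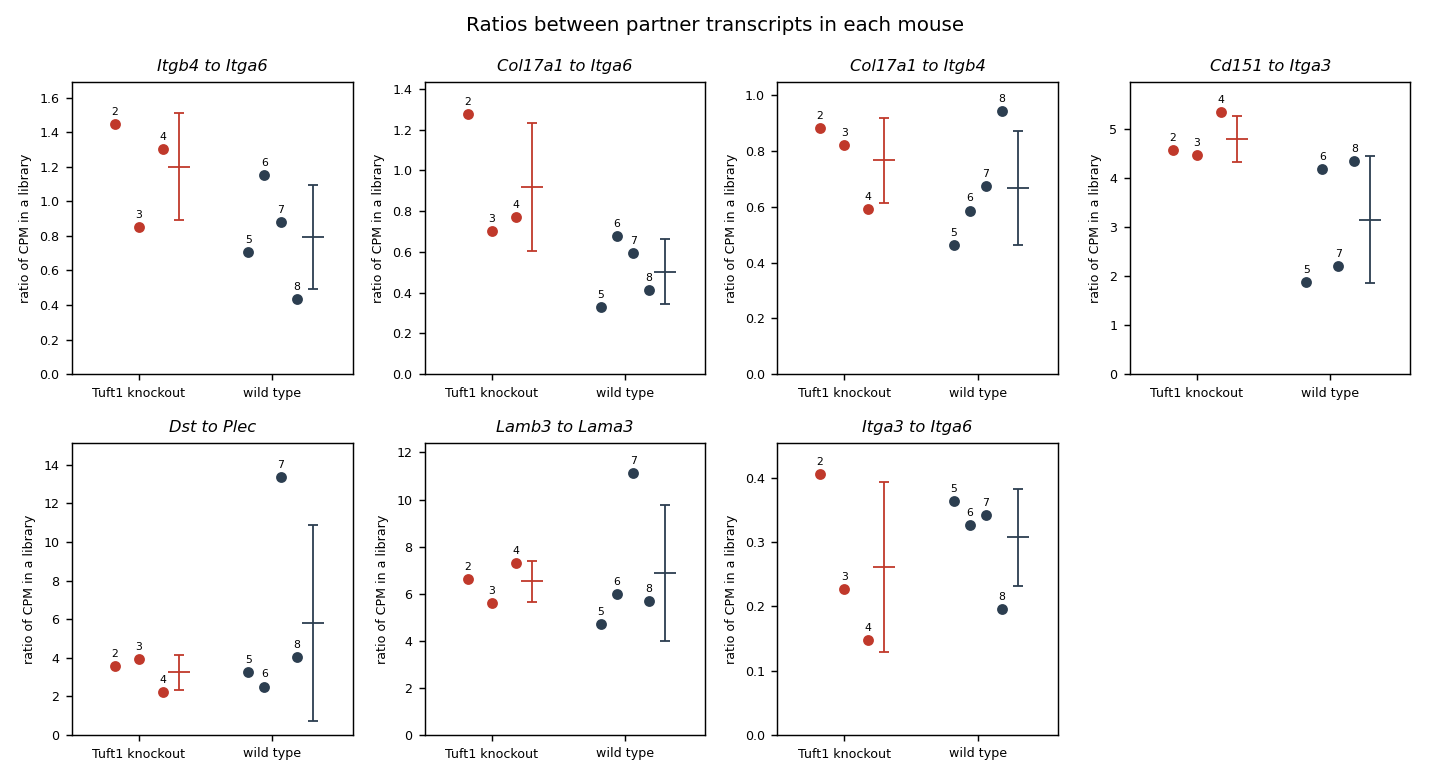
Ratio of CPM (y axis, from 0) between partner transcripts in each of the 3 knockout mice (left) and 4 wild-type mice (right); points are mice with their numbers, and bars are mean ± SD. The knockout mice lie above the wild-type mice in Col17a1 to Itga6 and in Cd151 to Itga3, the other 5 ratios overlap, and wild-type mouse 7 stands at 13.4 in Dst to Plec.

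The order of the levels was alike at both ends in the 2 genotypes. Knockout skin ran, from high to low mean, Dst, Itgb4, Cd151, Lamb3, Itga6, Plec, Col17a1, Itga3 and Lama3. Wild-type skin ran Dst, Itga6, Cd151, Itgb4, Lamb3, Plec, Col17a1, Itga3 and Lama3. Itga6 ranked just below Lamb3 in knockout skin and just below Dst in wild-type skin, but in both genotypes its range overlapped those of Cd151 and Lamb3. Among neighbours in this order, in knockout skin only Dst over Itgb4 and Col17a1 over Itga3 had ranges that did not overlap, and in wild-type skin only Dst over Itga6 and Itga3 over Lama3. No library was high or low throughout: each of the 7 was the lowest or the highest in 1 to 3 of the 9 genes. Knockout mouse 4, for example, was highest in Itgb4 and Plec and lowest in Itga3, and wild-type mouse 5 was highest in Itga6 and Itga3 and lowest in Col17a1.

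As a percentage of Krt5 plus Krt14 in the same library, a measure that needs no scaling between libraries, Itga6 was at 2.05%, 3.23% and 2.67% in knockout mice, against 3.99%, 3.80%, 3.55% and 4.88% in wild-type mice. The gap between the groups was wider on this measure than on CPM. How much of Itga6 came from cells other than keratinocytes was not tested. Itga3 was at 0.834%, 0.735% and 0.394% of the keratin sum in knockout mice, against 1.45%, 1.24%, 1.21% and 0.958% in wild-type mice. Again the groups did not overlap. The other 7 genes overlapped, and 6.70% of all genes tested were apart on either side by this measure. The sum of Krt5 and Krt14 itself overlapped between the groups, at 5079 to 7203 CPM over the 7 libraries. Trp63, the transcription factor of basal keratinocytes, averaged 94.2 ± 13.7 CPM in knockout skin and 141 ± 53.5 CPM in wild-type skin (SD, n = 3 and n = 4), with overlap (log2 fold change -0.58, SE 0.32). Of the 8 basal keratinocyte markers, 5 had a log2 fold change below 0, Trp63 included, and 3 above (Krt5 0.20, Krt15 0.15 and Trp73 2.26). The Trp73 estimate had an SE of 2.30, with 0 counts in wild-type mice 6 and 7. The rule for which genes to name, given below, did not take Trp63.

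**Figure D3:**
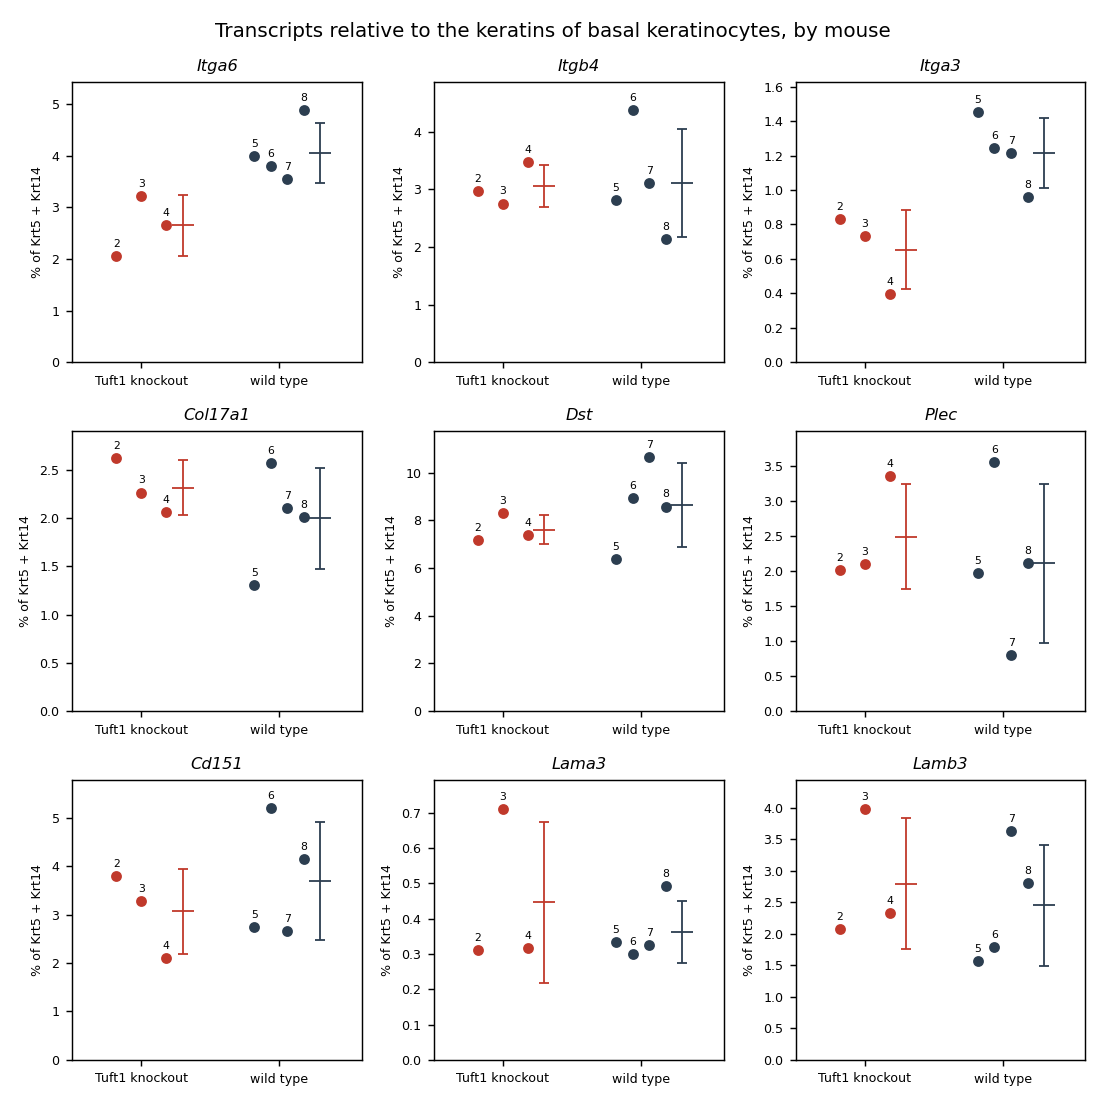
Each gene's CPM as a percentage of Krt5 plus Krt14 CPM in the same library (y axis, from 0), in the 3 knockout mice (left) and 4 wild-type mice (right); points are mice with their numbers, and bars are mean ± SD. Itga6 (2.05% to 3.23% against 3.55% to 4.88%) and Itga3 (0.394% to 0.834% against 0.958% to 1.45%) lie lower in every knockout mouse, and the other 7 genes overlap.

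The 95% intervals show how large a difference these mice leave room for. For Itgb4, Col17a1, Dst and Cd151 the whole interval lay within a 2-fold change in either direction, as it did in 14.4% of all genes tested. For Lamb3 the interval ended at about a 2-fold increase. For Itga6 and Itga3 the intervals held decreases larger than 2-fold, and for Plec and Lama3 increases larger than 2-fold.

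**Figure D4:**
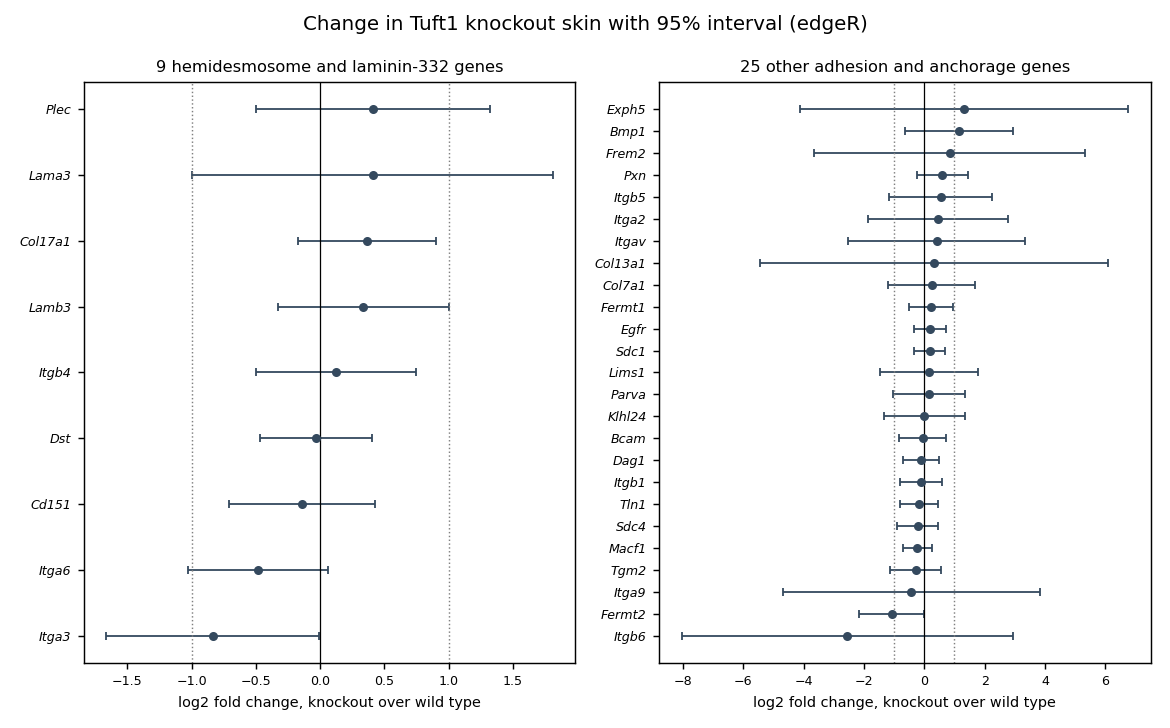
Log2 fold change, knockout over wild type (x axis), with its 95% interval from edgeR, for the 9 genes (left) and for 25 other adhesion and anchorage genes (right, on a wider scale); points are estimates, bars are intervals, and dotted lines mark a 2-fold change. Every interval crosses 0 except those of Itga3 and Fermt2, which end just below it, and no gene was called.

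A list of 29 other genes of cell adhesion and basement membrane anchorage was examined in the same test, of which 25 had enough counts. None was called, 14 had a log2 fold change above 0 and 11 below, and the median was 0.15, against -0.0098 for all genes. In 1 of the 25, Fermt2, the unadjusted p was below 0.05 and the groups did not overlap, a count near the background of 4.31% and 6.89% of all genes. Fermt2, which encodes the integrin activator kindlin-2, was at 28.5, 31.1 and 12.1 CPM in knockout mice, against 74.2, 40.2, 42.1 and 46.5 CPM in wild-type mice (log2 fold change -1.09, SE 0.50; edgeR unadjusted p = 0.0498, adjusted p = 1.00). Its epithelial relative Fermt1, kindlin-1, had a log2 fold change of 0.22 (SE 0.34), and whether the 2 kindlins differed was not tested. Fermt1, Itgb1 and Col7a1 are given although their p-values were not among the 8 smallest of this list, a choice made after their values were seen.

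Itgb1, the β1 partner of α3, was at 400.5, 257 and 131 CPM in knockout mice, against 275, 292, 351 and 226 CPM in wild-type mice. It overlapped, with the highest and the lowest library both from knockout mice (log2 fold change -0.12, SE 0.32). Col7a1, whose collagen VII forms the anchoring fibrils beneath the basement membrane, was at 13.5, 42.6 and 30.4 CPM in knockout mice, against 10.7, 22.8, 40.4 and 23.6 CPM in wild-type mice (log2 fold change 0.24, SE 0.67). Macf1, a plakin related to dystonin, had a log2 fold change of -0.24 (SE 0.22). The epidermal growth factor receptor gene Egfr stood at 0.19 (SE 0.24) on the same scale, and the syndecans Sdc1 and Sdc4 at 0.18 (SE 0.23) and -0.22 (SE 0.31). Pxn, encoding the focal adhesion protein paxillin, stood at 0.59 (SE 0.39), and Bmp1, encoding a protease that matures laminin-332 and collagen VII, at 1.14 (SE 0.83). Itgb6, encoding an epithelial integrin chain, had 0 counts in 2 knockout libraries, at 3.49, 0 and 0 CPM in knockout mice, against 10.7, 3.49, 5.40 and 8.04 CPM in wild-type mice. The 4 genes without enough counts were Vcl, Ilk, Fras1 and Frem1, and a 0 in such libraries does not show that a gene was silent, since Ilk, used by most cells, was at 0 in all 7.

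The genes whose levels followed the mean of the 9 standardised log2 CPM most closely over the 7 libraries, among 4425 genes with a mean log2 CPM of at least 5, were Dpp3 (r = 0.976), Nktr (0.954), Mfsd14b (0.9497), Peli1 (0.942) and Pcsk6 (0.941), by Pearson's r. Dpp3 was at 56.4, 131 and 121 CPM in knockout mice, against 90.3, 119, 86.3 and 62.4 CPM in wild-type mice. Dpp3 was low in knockout mouse 2 and wild-type mouse 8, the same mice in which the 9 genes took the smallest shares of counts, 0.135% and 0.136%. Because Dpp3 was picked for following these genes, that match is no separate finding. The ranking is a description, taken over 7 libraries of both genotypes that share each library's depth between genes.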

How the data were processed

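RNA of skin from 7 mice was made into 3' tag libraries with the QuantSeq kit, per the labels' protocols. The authors deposited whole-number counts per gene, summing to 7009237 to 9256459 per library. The mm39 build and the tools edgeR 3.36.0, Subread 2.0.3, featureCounts, GATK 4.2.4.0 and STAR are listed, without a role or order, in the submitters' processing notes. The authors also deposited log2 values for 12954 genes; 90678 of 90678 were recovered from the counts as edgeR log2 CPM (TMM, prior count of 2, tolerance 1e-09), and they served only as this check.

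From the counts, edgeR 4.0.16 under R 4.3.3 kept 12888 of 19128 genes with any count (expression filter, minimum count 10), scaled libraries by TMM and compared genotypes with the quasi-likelihood F test, with no covariate. P-values were adjusted by Benjamini-Hochberg over the 12888 genes, and genes below 0.05 were called. Fold changes on the log2 scale have the knockout mice on top, with 95% intervals on the test's total degrees of freedom, those of the mice plus those edgeR borrows across genes. Levels of single genes were compared by exact permutation, two-sided, over the 35 splits of the mice. The procedure was tested on simulated counts whose planted fold changes were larger than any estimated for the 9 genes. That test does not show whether smaller changes would be detected with these mice.

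The 9 members, the other gene lists and the tests were chosen with earlier results of these data known. All 9 members were named. The list of other adhesion genes leaves out 1 gene that is not reported here. Of the other adhesion genes, the rule took the called ones or else the 8 with the smallest p; it also took Tuft1, Krt5, Krt14 and the 5 genes most like the members' mean by Pearson's r of log2 CPM. Alternatives were DESeq2 1.42.0 size factors, the DESeq2 Wald test, limma-voom (limma 3.58.1), no filter, basal keratinocyte level as a covariate, and each mouse left out. That basal keratinocyte level was the mean log2 CPM of Krt5, Krt14, Krt15 and Trp63. Other scalings of the levels were added after the data were seen. Gene coordinates are those of the deposited table. Counting does not separate isoforms, and intervals and limits of 0 cover counting error or the spread between these mice only.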

Additional observations from a re-analysis of the deposited data

Results flagged for a closer look

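Among 37 groups of 4 wild-type values examined, 2 held a mouse far from the others, where chance gives about 1 in 20, or 1.85. Tuft1 had a value of 5.80 (log2 CPM) in mouse 7, which is wild type, while the other wild-type mice had 6.70 to 6.84. Col13a1, a transmembrane collagen, stood at 3.88 in wild-type mouse 8 and had 0 counts in the other wild-type mice. With those mice tied at 0, any count in mouse 8 would have met the rule, so the 1 in 20 does not cover Col13a1. None of the 9 hemidesmosome and laminin-332 genes had such a value. Groups of 3 knockout mice are too small for this rule.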

How the results depend on the processing

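No member was called under any of the 12 alternatives, and none of the other adhesion genes was. Over all genes, 3 were called, against 123 by the DESeq2 Wald test, 22 by limma-voom and 76 with no filter on low counts, and 0 to 1 with 1 mouse left out; unadjusted p-values below 0.05 numbered 555 in the edgeR test and 432 to 847 with 1 mouse left out. The members' median log2 fold change of 0.12 ranged from -0.052 to 0.20 with 1 mouse left out. Signs turned for Itgb4 (-0.11 without knockout mouse 4 and -0.052 without wild-type mouse 8, up to 0.28), Plec (-0.020 without knockout mouse 4, up to 0.72), Lama3 (-0.0066 without knockout mouse 3, up to 0.63), Dst (0.054 without knockout mouse 2, 0.067 without wild-type mouse 7, down to -0.13) and Cd151 (0.028 without wild-type mouse 6, down to -0.28); the cause was not tested. Itga6 (-0.61 to -0.29), Itga3 (-1.003 to -0.61), Col17a1 (0.27 to 0.47) and Lamb3 (0.072 to 0.57) kept their sign in all 12, with a lowest adjusted p of 0.479, for Itga3 by the DESeq2 Wald test. Members whose groups did not overlap numbered 2 on TMM-scaled CPM, 1 with DESeq2 size factors, 0 by total count and 2 relative to Krt5 plus Krt14, scalings chosen after seeing the data. No paired analysis was possible because the mouse numbers are not shared between the genotypes. With 3 knockout and 4 wild-type mice, the intervals hold decreases beyond 2-fold in Itga6 and Itga3 and increases beyond 2-fold in Plec and Lama3. Lama3 had the fewest counts of the 9 genes, 1382 over all libraries.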
